A study of Danio rerio with 14 samples.

Results

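Overfeeding was compared with normal feeding in the liver of zebrafish that carried the Src transgene. The comparison took the 3 overfed arrays of the Src(p53-) and HBx,Src(p53-) lines, 1 and 2 arrays respectively, against the 3 normal diet arrays of the same lines, again 1 and 2, with the genotype as a term of the model. These were 6 of the 14 arrays of the series, and no high fat array entered. The fish were of the AB strain and carried Src, a tyrosine kinase, alone or together with HBx, the X protein of hepatitis B virus, under the fabp10a promoter, which is active in hepatocytes. All 6 arrays came from p53 mutant fish, so the mutation was shared by both sides of the comparison. Normal diet fish (NOR) received 0.5 mL of Artemia, a brine shrimp, 1 time a day, and overfed fish (DIO, diet-induced obesity) received 2 mL 3 times a day, 12 times the normal amount, for 8 weeks from an age of 3 months. All fish also received powdered feed. Each array came from a different fish, as the study's supplementary list counts as many fish as arrays. Neither the sex of the fish nor their histology was used here. A lone Src(p53-) array on each side means that the spread between fish was measured in HBx,Src(p53-) and between the lines, and p-values measure that spread only.

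Liver cells make cholesterol from acetyl-CoA through the mevalonate pathway and then from squalene, and the transcription factor SREBP2, the product of srebf2, raises these enzymes when sterols in the endoplasmic reticulum (ER) run low. The ER folds and glycosylates secreted proteins, and the proteasome degrades the proteins it rejects. Ribosome biogenesis, in which the nucleolus makes and processes ribosomal RNA, sets the capacity for protein synthesis, while FoxO factors and the coactivator PGC-1α, the product of ppargc1a, switch on glucose production in fasting.

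Expression was given as a log2 level per probe set, and 21125 genes were tested with 1 probe set each. On the 6 arrays the levels ran from 0.51 to 14.38, the array medians from 3.08 to 3.27, and the correlation across genes between arrays from 0.932 to 0.968. The HBx,Src(p53-)_NOR arrays stood further apart than the HBx,Src(p53-)_DIO arrays, with 2999 against 1575 genes more than 2-fold apart. Hepatocyte markers were at the same high level on both diets, with fabp10a at 13.15 ± 0.13 under NOR and 13.23 ± 0.05 under DIO (SD, n = 3). The gene src read 4.94 in the Src(p53-)_NOR fish, 5.03 and 4.91 in the HBx,Src(p53-)_NOR fish, 6.01 in the Src(p53-)_DIO fish and 4.23 and 4.90 in the HBx,Src(p53-)_DIO fish. Its overfeeding change was +0.09 ± 0.37 (± is the standard error of a log2 change from limma throughout) and turned to -0.41 without either Src(p53-) array. Whether the src probes read the transgene is not given in the sources used here, so src does not check the labels. In whole liver RNA, fewer cells of a type and less RNA per cell cannot be told apart.

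Sterol synthesis genes were far lower in overfed fish, and endoplasmic reticulum, proteasome and fatty acid synthesis genes were lower by smaller amounts, while ribosome biogenesis and several fasting genes were higher. No gene passed limma's adjusted threshold of 0.05 (0% of the genes tested, lowest adjusted p = 0.163), while 2430 genes (11.5%) had an unadjusted p under 0.05 and chance alone would give 1056. Of the 2430, 1573 (7.45%) were lower in overfed fish and 857 (4.06%) were higher. The 3 DIO values lay outside the 3 NOR values in 3079 genes (14.6%), of which 1942 (9.19%) were lower and 1137 (5.38%) higher. Whatever the size, 53.5% of all genes were lower and 46.5% higher. In a fit that drew the spread from the 11 NOR and DIO arrays of all 4 lines, 6 genes fell at an adjusted p under 0.05 and 0 rose. All 6 were enzymes of cholesterol synthesis, namely hsd17b7 (adjusted p = 0.00474), msmo1 and cyp51 (both 0.0344), and hmgcra, lss and sqlea (each 0.0472). Over all alternatives their adjusted p reached 0.790, in the fit without HBx,Src(p53-)_DIO 2.

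In the mevalonate pathway, which leads from acetyl-CoA to farnesyl diphosphate, 9 of 10 measured genes had lower mean levels under DIO, and the median change was -2.46 against -0.03 for all genes. Hydroxymethylglutaryl-CoA reductase, the rate-limiting enzyme of the pathway, is encoded by hmgcra, which read 9.78 in the Src(p53-)_NOR fish and 11.80 and 11.12 in the HBx,Src(p53-)_NOR fish. Overfed fish gave 5.64 in Src(p53-) and 7.09 and 4.98 in HBx,Src(p53-). Every overfed value was below every normal diet value, and the change was -4.99 ± 0.60, or 31.9-fold (adjusted p = 0.174). The synthase hmgcs1, which makes hydroxymethylglutaryl-CoA, read 8.29 under NOR against 6.31 under DIO in Src(p53-). In HBx,Src(p53-) hmgcs1 read 12.58 and 10.76 under NOR and 5.86 and 5.88 under DIO, and its change over both lines was -4.53 ± 0.87, or 23.0-fold. The NOR fish thus differed among themselves by far more than the DIO fish did, which lay between 5.86 and 6.31. The diphosphomevalonate decarboxylase mvda went from 5.38 to 3.19 in Src(p53-), and from 9.13 and 7.66 to 3.02 and 3.41 in HBx,Src(p53-), a change of -4.18 ± 0.70. The isomerase idi1 had the smallest error in the pathway (-1.78 ± 0.20), from 7.49 to 5.71 in Src(p53-) and from 8.84 and 8.47 to 6.89 and 6.87 in HBx,Src(p53-). The member against the direction was ggps1, which makes geranylgeranyl diphosphate on a side branch, at +0.08 ± 0.39. In all, 8 of the 10 mevalonate genes had DIO values below all NOR values (9.19% of all genes did). An unadjusted p under 0.05 on the lower side was reached by 7 (7.45% of all genes).

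Of the 13 genes that carry squalene on to cholesterol, 11 were lower in overfed fish. All 11 had non-overlapping values (9.19% of all genes did) and an unadjusted p under 0.05 (7.45% of all genes). Their median change was -3.45. The squalene epoxidase sqlea, a control point of the pathway, read 6.21 in the Src(p53-)_NOR fish and 10.07 and 8.36 in the HBx,Src(p53-)_NOR fish. It was 2.38, 2.36 and 2.38 in the 3 overfed fish, below the median gene of those arrays. The measured change of -5.84 ± 0.73 (adjusted p = 0.174) was the largest of any gene tested. It corresponds to 57.4-fold, a point estimate over both lines, and the Src(p53-) pair changed by less. The file holds no background measure for values this low, so the size of the fold is uncertain. The largest moderated t, the change divided by its moderated error, belonged to hsd17b7, a sterol ketoreductase. It went from 5.73 to 2.28 in Src(p53-) and from 7.77 and 7.25 to 3.19 and 3.01 in HBx,Src(p53-). On the probe set kept, the change was -4.09 ± 0.29 (adjusted p = 0.163) or 17.0-fold, with overfed values near the array medians. Averaging all probe sets of hsd17b7 gave -2.36, so the size of the change depends on the probe set. The sterol demethylases cyp51 and msmo1 stayed among the brighter genes even after the drop. The level of cyp51 was 9.62 under NOR and 5.77 under DIO in Src(p53-), against 11.79 and 10.57 under NOR and 7.45 and 6.37 under DIO in HBx,Src(p53-) (-4.13 ± 0.43). The level of msmo1 was 10.15 and 7.63 in Src(p53-), against 11.74 and 11.41 under NOR and 8.08 and 7.48 under DIO in HBx,Src(p53-) (-3.37 ± 0.34). Lanosterol synthase (lss), which closes the ring system, went from 4.07 to 1.58 in Src(p53-) and from 6.83 and 6.25 to 1.65 and 1.91 in HBx,Src(p53-) (-4.01 ± 0.50). The 2 genes that did not share this pattern were sqleb, the second squalene epoxidase, at 1.18 to 1.80 on all 6 arrays (+0.21 ± 0.22), and lbr, the lamin B receptor with sterol reductase activity (+0.05 ± 0.35). Over both segments of the pathway, 19 of 23 genes (82.6%) had non-overlapping values on the lower side, against 9.19% of all genes.

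**Figure D1:**
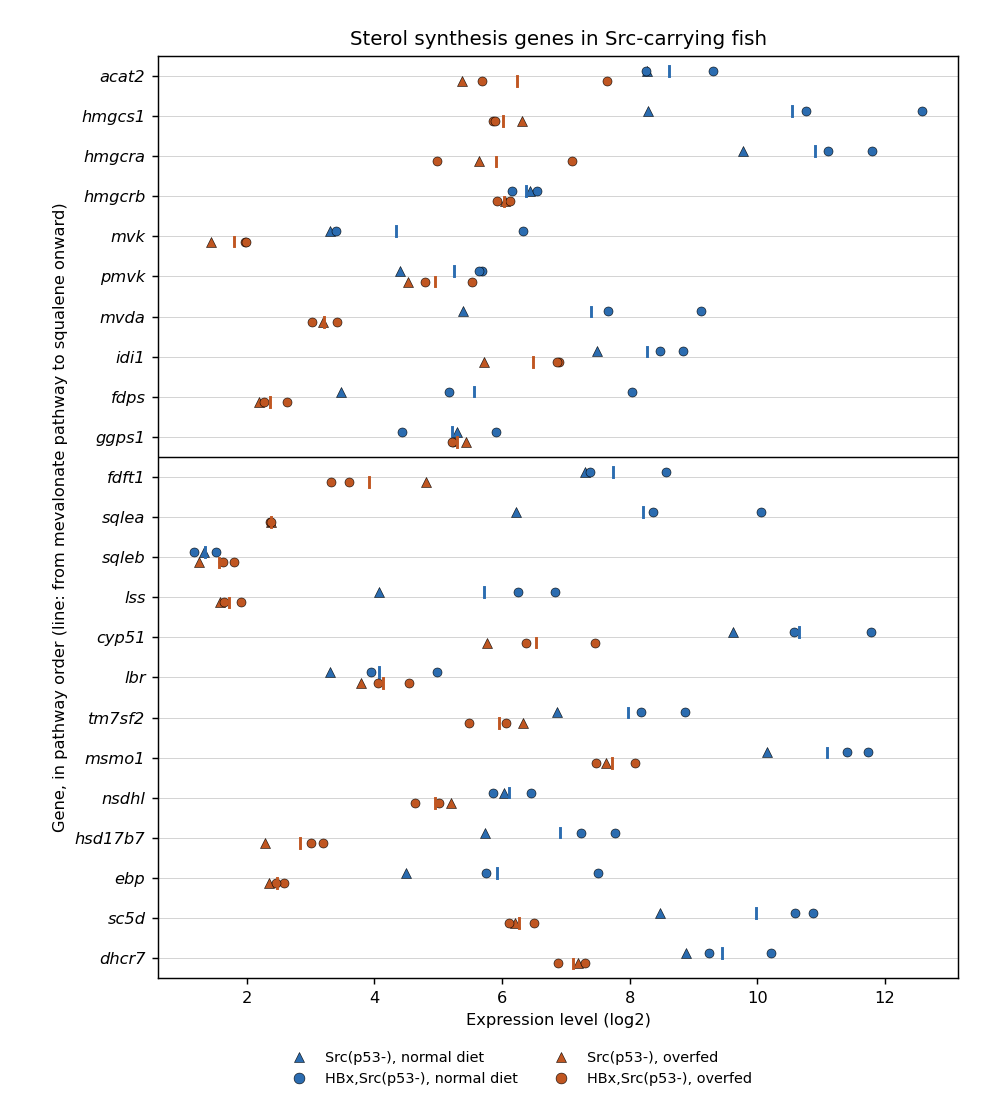
Expression level (log2) of the 23 measured sterol synthesis genes on each of the 6 arrays, in pathway order; blue symbols are normal diet fish, orange symbols overfed fish, triangles Src(p53-), circles HBx,Src(p53-), and short bars the mean of 3 arrays. For sqlea the 3 overfed fish sit at 2.36 to 2.38 and the normal diet fish at 6.21 to 10.07, while sqleb, lbr, ggps1 and pmvk overlap between the diets.

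Sterol sensing and transport genes, a list that joins regulators of this pathway with transport genes, did not move as a group. Of 18 measured, 9 were higher and 9 lower (median +0.01). The transcription factor gene srebf2 read 8.16 under NOR and 7.04 under DIO in Src(p53-), and 8.46 and 8.79 under NOR and 6.38 and 6.31 under DIO in HBx,Src(p53-). It was lower by 3.72-fold in overfed fish, without overlap (-1.89 ± 0.30, adjusted p = 0.194). Its escort protein gene scap was -0.49 ± 0.32 and the retention factor insig1, itself a target of SREBP in mammals, was +0.06 ± 0.65, turning to -0.62 without either Src(p53-) array. The gene mbtps1, the site-1 protease that releases SREBP from the membrane, was +0.85 ± 0.23 with non-overlapping values. In the list, 3 genes had an unadjusted p under 0.05 on the lower side and 1 on the higher side. These were 16.7% and 5.56% of the list, against 7.45% and 4.06% of all genes. The other members lay between -0.75 and +0.89.

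The 13 squalene to cholesterol genes averaged 6.34 in the Src(p53-)_NOR fish and 8.15 and 7.48 in the HBx,Src(p53-)_NOR fish, against 4.36, 4.53 and 4.38 in the 3 overfed fish. The WT and HBx(p53-) fish lay between 4.45 and 5.01 on either diet, near the overfed Src-carrying fish. The 10 mevalonate genes averaged 6.21 in the Src(p53-)_NOR fish, 8.31 and 7.21 in the HBx,Src(p53-)_NOR fish, and 4.58, 5.20 and 4.70 in the overfed fish. For these, WT_NOR 2 at 6.08 lay just below the Src(p53-)_NOR fish, and the other 4 fish of the WT and HBx(p53-) lines at 4.86 to 5.07. For sqlea the 5 WT and HBx(p53-) fish read 2.61 to 3.5, for hsd17b7 3.44 to 3.82 and for srebf2 7.38 to 7.85. For each of these 3 genes the overfed Src-carrying fish lay below, and the normally fed Src-carrying fish above, all 5 fish of the other lines. The overfeeding change of the 23 sterol genes had a median of -1.98 in Src(p53-) but -3.80 in HBx,Src(p53-), against -0.33 in WT and +0.05 in HBx(p53-). The genotypes were not tested against each other under normal diet here.

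**Figure D2:**
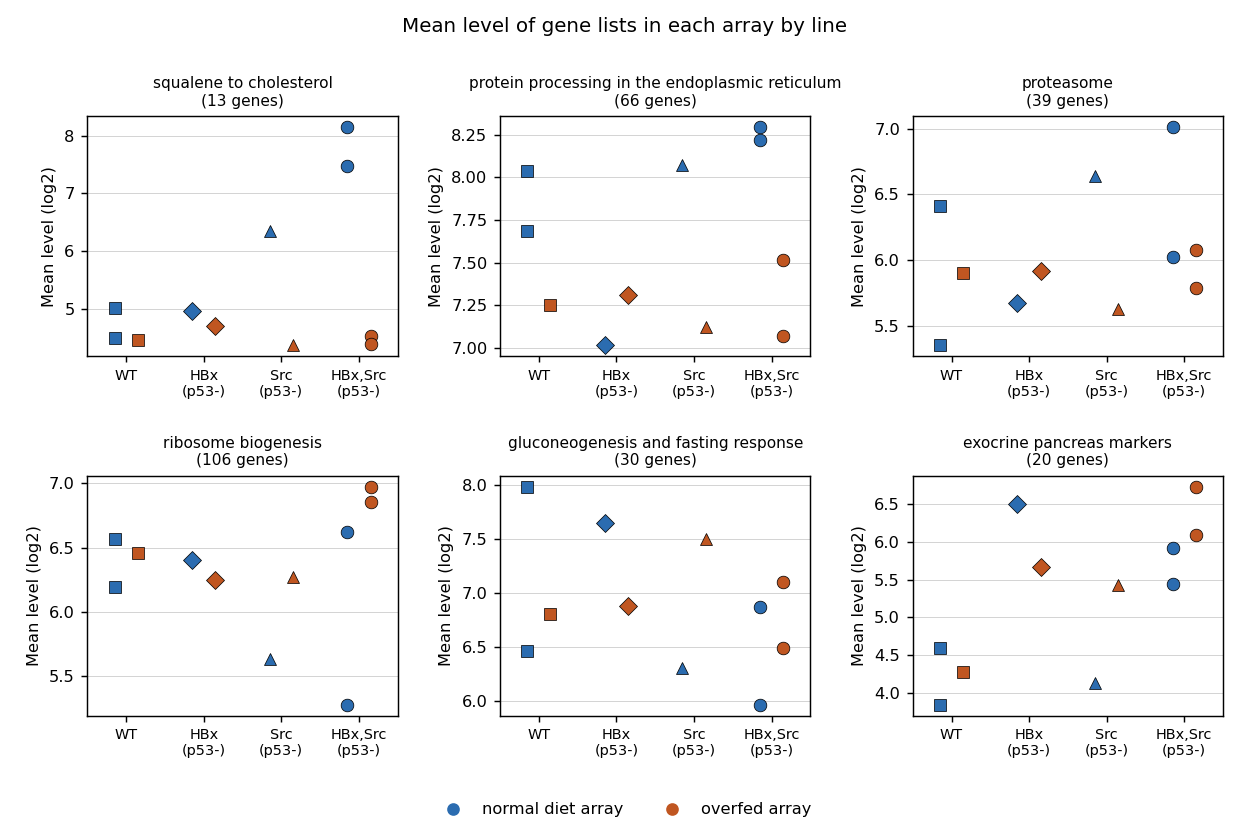
Mean log2 level of 6 gene lists on each of the 11 normal diet (blue) and overfed (orange) arrays, by line; each symbol is 1 array, and the vertical axes start above 0. The squalene to cholesterol genes average 6.34 to 8.15 in normally fed Src-carrying fish and 4.36 to 5.01 on every other array shown.

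Of 15 fatty acid synthesis genes, 13 were lower (median -0.79), where 53.5% of all genes were lower. Of the 13, 7 had an unadjusted p under 0.05 (46.7% of the list, against 7.45% of all genes). The stearoyl-CoA desaturase scd, which makes monounsaturated fatty acids, read 11.10 under NOR and 6.0 under DIO in Src(p53-). In HBx,Src(p53-) it read 9.73 and 11.27 under NOR and 9.24 and 7.21 under DIO, a change over both lines of -3.21 ± 0.83 or 9.28-fold. The groups did not overlap, but HBx,Src(p53-)_DIO 1 was within 0.5 of the lowest NOR value on the log2 scale. The ATP citrate lyase aclya, which supplies acetyl-CoA, was lower without overlap (-1.58 ± 0.38). For thrsp, a lipogenic factor, the change was -2.52 ± 0.76 with 1 overfed value inside the normal diet range, and for pparg, a nuclear receptor of fat storage, it was -0.79 ± 0.26. The fatty acid synthase fasn read 9.61 and 6.64 in Src(p53-), and 9.51 and 7.84 under NOR and 8.27 and 6.45 under DIO in HBx,Src(p53-), so the groups overlapped (-1.87 ± 0.69). The citrate carrier slc25a1a had the largest moderated t against the direction (+0.63 ± 0.44). With the mean level of exocrine pancreas markers as a covariate the median of the list was -1.20.

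Genes that elongate and desaturate polyunsaturated fatty acids had a small median (-0.27, 9 of 12 lower), and it was -0.07 without HBx,Src(p53-)_NOR 1 and -0.42 without HBx,Src(p53-)_NOR 2. The elongase elovl5 nevertheless read 10.46, 10.12 and 10.19 under NOR and 8.32, 8.46 and 7.62 under DIO, a change of -2.12 ± 0.27 with little spread on either side (adjusted p = 0.174). The second elongase, elovl2, was -2.05 ± 0.58, the reductase tecrb was -1.21 ± 0.30, and the desaturase fads2 was -0.92 ± 0.30. These 4 genes (33.3% of the list, against 7.45% of all genes) were the members with an unadjusted p under 0.05. None of the list was so on the higher side (4.06% of all genes), where elovl1a lay at +0.38 ± 0.20.

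Genes of protein processing in the ER were lower in 60 of 66 members, with a median of -0.91. Of them, 35 had non-overlapping values on the lower side (9.19% of all genes did) and 39 an unadjusted p under 0.05 (7.45% of all genes). On the higher side either count was 0. Calnexin (canx), a lectin chaperone that holds glycoproteins until they are folded, read 10.28, 9.48 and 9.95 under NOR and 8.01, 8.00 and 7.5 under DIO. All 3 overfed fish were well below the lowest normally fed fish, and the change was -2.07 ± 0.25 or 4.19-fold (adjusted p = 0.174). The calreticulin gene calr3b, of the same chaperone cycle, read 9.96, 10.20 and 9.89 under NOR and 8.17, 8.04 and 7.23 under DIO (-2.20 ± 0.30). The ER form of HSP90, hsp90b1, was -1.65 ± 0.24, and uggt1, which returns misfolded glycoproteins to calnexin, was -1.99 ± 0.33. Of the unfolded protein response, the sensors atf6 (-0.80 ± 0.44) and ern1 (+0.39 ± 0.28) and the transcription factor xbp1 (-0.40 ± 0.36) overlapped between the diets. All had unadjusted p above 0.05. A further sensor, eif2ak3, was lower and is given below with the integrated stress response. The largest moderated t against the direction was that of ssr3, a subunit of the translocon-associated complex (+0.38 ± 0.21), which turned to -0.027 when all its probe sets were averaged. The mean of the list was 8.07 in the Src(p53-)_NOR fish and 8.29 and 8.22 in the HBx,Src(p53-)_NOR fish, against 7.12, 7.52 and 7.07 in the overfed fish. The WT normal diet fish, at 7.69 and 8.04, lay between these groups, while the HBx(p53-) normal diet fish, at 7.02, lay below all 3 overfed Src-carrying fish. The overfed fish of these other lines were at 7.25 in WT and 7.31 in HBx(p53-).

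Proteasome subunits were lower in 38 of 39 members (median -0.83), with 13 non-overlapping (9.19% of all genes were so on that side) and 17 at an unadjusted p under 0.05 (7.45% of all genes). The ubiquitin receptor adrm1 read 6.64, 6.33 and 6.34 under NOR and 5.85, 5.69 and 5.17 under DIO (-0.87 ± 0.22). The regulatory particle subunits psmd11a (-1.05 ± 0.28) and psmd1 (-1.25 ± 0.34) were lower without overlap, and psmd3 was -1.30 ± 0.34 with overlap. The core subunit psma6b was +0.13 ± 0.22 and turned to -0.011 without HBx,Src(p53-)_NOR 1. List means were 6.64, 6.02 and 7.01 under NOR and 5.63, 6.08 and 5.79 under DIO, so HBx,Src(p53-)_NOR 1 lay within the overfed range. Without HBx,Src(p53-)_NOR 2 the median was -0.51, and with the pancreas covariate it was -1.25.

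Ribosome biogenesis was the large group on the higher side, with 96 of 106 members higher and a median of +0.88. An unadjusted p under 0.05 was reached by 33 members on the higher side (31.1%, against 4.06% of all genes) and by 0 on the lower side, and 13 had non-overlapping higher values (5.38% of all genes did). The endonuclease nob1, which trims the 3′ end of the small subunit RNA, read 5.17, 5.73 and 5.24 under NOR and 5.92, 6.98 and 7.24 under DIO (+1.33 ± 0.28). The maturation kinase riok1 was +1.34 ± 0.29, and sdad1, a factor of large subunit export, went from 5.93, 6.45 and 5.51 to 7.38, 7.20 and 7.30 (+1.33 ± 0.29). The small subunit processome factor utp3 had the largest change of the list (+2.31 ± 0.50), with the HBx,Src(p53-)_NOR 1 fish, at 5.83, inside the overfed range of 5.38 to 7.36. The processome factor tbl3 was against the direction (-0.47 ± 0.19). The list averaged 5.63, 6.62 and 5.28 in normally fed fish and 6.27, 6.97 and 6.86 in overfed fish, and within HBx,Src(p53-) both overfed fish were above both normally fed fish. The 5 fish of the other lines averaged 6.19 to 6.56. The median was +0.43 without HBx,Src(p53-)_NOR 2 and +1.69 with the pancreas covariate, and 1.28 without HBx,Src(p53-)_NOR 1.

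**Figure D3:**
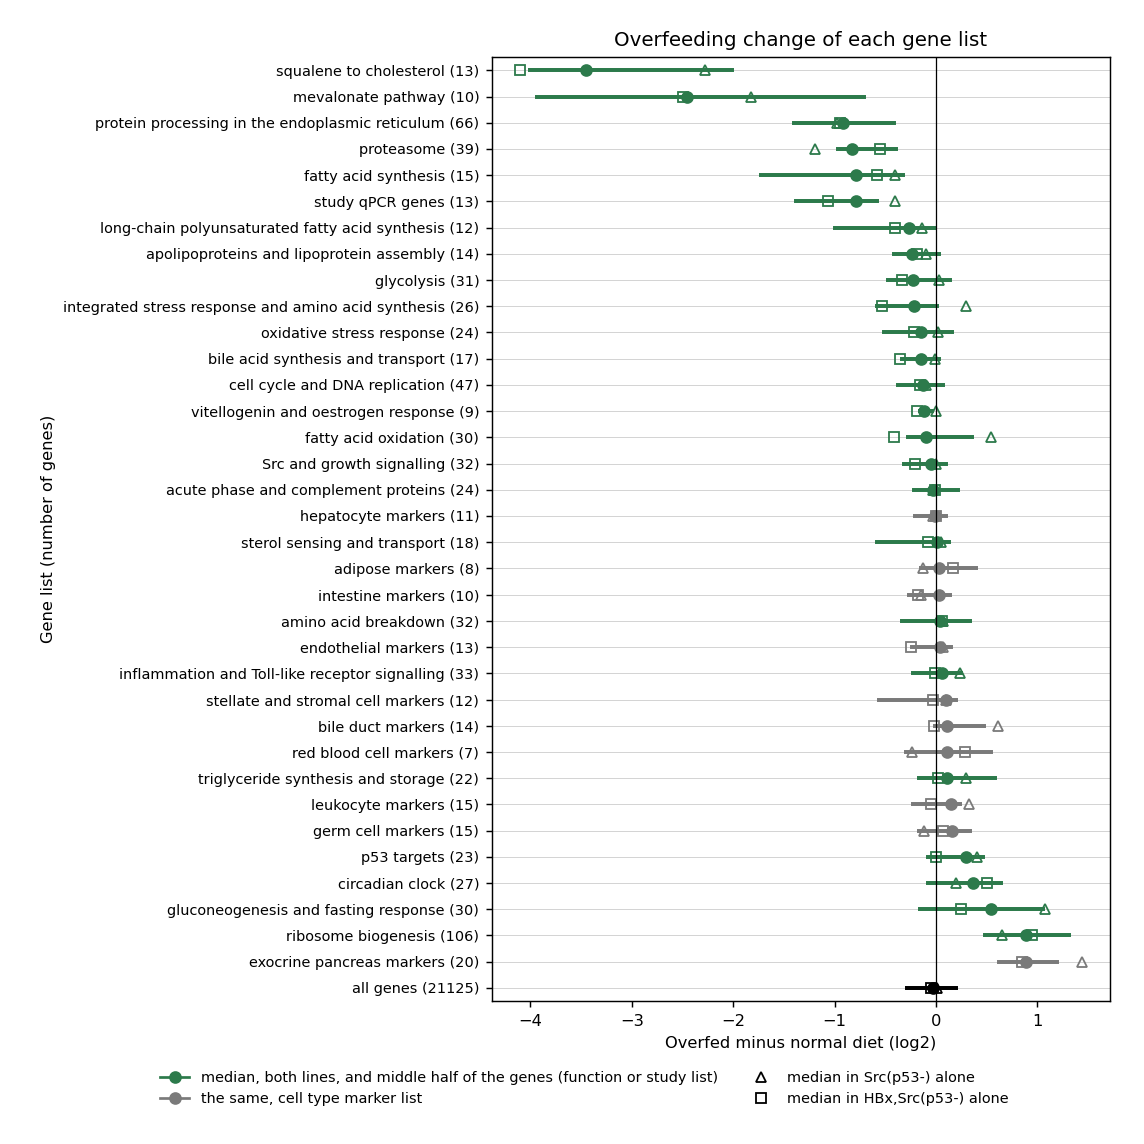
Overfeeding change (log2, overfed minus normal diet) of each gene list, with the number of genes; filled points are medians over both lines, bars run from the lower to the upper quartile of the genes, triangles are Src(p53-) alone and squares HBx,Src(p53-) alone. The squalene to cholesterol (-3.45) and mevalonate (-2.46) lists lie furthest to the left, the ribosome biogenesis list and the exocrine pancreas markers (both +0.88) furthest to the right, and all genes together at -0.03.

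In the list of gluconeogenesis and fasting genes, 21 of 30 members were higher in overfed fish (median +0.54). The ubiquitin ligase fbxo32, a FoxO target of muscle wasting, read 2.43, 3.35 and 2.24 under NOR and 4.41, 5.64 and 5.75 under DIO (+2.60 ± 0.36, adjusted p = 0.175). The transcription factor foxo1a went from 4.19 to 9.13 in Src(p53-), and from 7.12 and 5.57 to 7.74 and 8.70 in HBx,Src(p53-) (+2.90 ± 0.75). For the coactivator ppargc1a the values were 5.05, 6.86 and 4.12 under NOR and 7.91, 7.62 and 7.77 under DIO (+2.42 ± 0.68). The glucose-6-phosphatase g6pc1a.1 was +1.03 ± 0.28 with overlap, and the glucocorticoid receptor nr3c1 was lower (-1.03 ± 0.37). These 4 higher genes and nr3c1 were the members with an unadjusted p under 0.05. They were 13.3% of the list on the higher side and 3.33% on the lower side, against 4.06% and 7.45% of all genes. The list means overlapped between the diets, with HBx,Src(p53-)_DIO 1 at 6.49, below HBx,Src(p53-)_NOR 1 at 6.87. The list median was +1.07 in Src(p53-) but +0.24 in HBx,Src(p53-), and without either Src(p53-) array it was +0.24. Its mean in the WT normal diet fish was 7.98 and 6.46, a gap wider than that between the diets in HBx,Src(p53-).

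Triglyceride and fatty acid oxidation genes had medians near that of all genes (+0.11 and -0.10). The mean level of the triglyceride list nonetheless did not overlap between the diets, at 5.85 to 6.05 under NOR and 6.22 to 6.41 under DIO. Among 22 triglyceride genes, 15 were higher, led by the lipid droplet protein cidec, which read 4.16, 5.25 and 4.21 under NOR and 6.25, 6.83 and 7.39 under DIO (+2.28 ± 0.34, 4.87-fold, adjusted p = 0.194). The phosphatidate phosphatase lpin1a, which also coactivates oxidation genes, was +2.44 ± 0.70, abhd5a, an activator of lipolysis, was +0.79 ± 0.28, and g0s2, an inhibitor of lipolysis, was +1.48 ± 0.65 with overlap. The acyltransferase agpat4 (-1.38 ± 0.32) lay lower without overlap. Of 30 oxidation genes 13 were higher and 17 lower, and the median was +0.54 in Src(p53-) but -0.42 in HBx,Src(p53-). The carnitine palmitoyltransferase cpt1b, of the step that admits fatty acids to mitochondria, read 6.13 and 9.78 in Src(p53-), and 5.31 and 7.18 under NOR and 7.53 and 8.84 under DIO in HBx,Src(p53-) (+2.51 ± 0.66). The next enzyme of that step, cpt2, was -0.77 ± 0.28, and the trifunctional protein subunit hadhab was -0.86 ± 0.33.

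Among all genes whose diets did not overlap, the 10 largest moderated t values in each direction were taken, and none of these 20 genes was called. On the lower side, beside hsd17b7, msmo1, cyp51 and idi1, stood the tubulins tubb2b and tuba5, fam219aa, the pentose phosphate enzyme pgd, the germ cell nuclear protein gcna and znf668. The beta tubulin tubb2b, a building block of microtubules, read 5.51, 6.51 and 6.74 under NOR and 2.87, 2.90 and 3.48 under DIO (-3.17 ± 0.28), and the alpha tubulin tuba5 was -2.34 ± 0.25. Replicates lay close together in fam219aa, at 6.63, 6.63 and 6.65 under NOR and 4.35, 4.65 and 4.64 under DIO (-2.09 ± 0.19). Of the 2 remaining genes, gcna was -2.15 ± 0.24 and znf668 was -2.02 ± 0.24. The NADPH-producing enzyme pgd was -2.07 ± 0.22, from 7.10 to 4.67 in Src(p53-) and from 8.61 and 8.34 to 6.56 and 6.62 in HBx,Src(p53-).

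On the higher side, angptl4, an inhibitor of lipoprotein lipase that is induced in fasting, read 5.46, 5.11 and 6.54 under NOR and 9.40, 8.95 and 9.23 under DIO. This was a change of +3.49 ± 0.41, or 11.3-fold (adjusted p = 0.174). In the other lines angptl4 spanned 5.63 to 9.26, with the 2 WT normal diet fish at these extremes, so its range among normally fed fish was as wide as the difference. The glycolysis regulator pfkfb4a was flat under NOR (4.77, 4.72 and 4.69) and reached 6.72, 6.27 and 6.87 under DIO (+1.89 ± 0.23). Likewise ino80b, a subunit of a chromatin remodelling complex, went from 5.79, 5.79 and 5.76 to 7.15, 7.29 and 7.19 (+1.43 ± 0.18), and ing5a, of a histone acetylation complex, from 6.72, 6.80 and 6.70 to 8.30, 8.62 and 8.95 (+1.89 ± 0.21). The protease inhibitor a2m3a had the largest moderated t of the higher genes (+2.25 ± 0.25). The others were tyw3, an enzyme of tRNA modification (+1.98 ± 0.23), the respiratory chain subunit cox4i2 (+1.90 ± 0.25), the transcriptional repressor zbtb16b (+1.85 ± 0.24), ttf1.6 (+2.02 ± 0.25) and the trypsin prss59.2 (+1.73 ± 0.22).

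**Figure D4:**
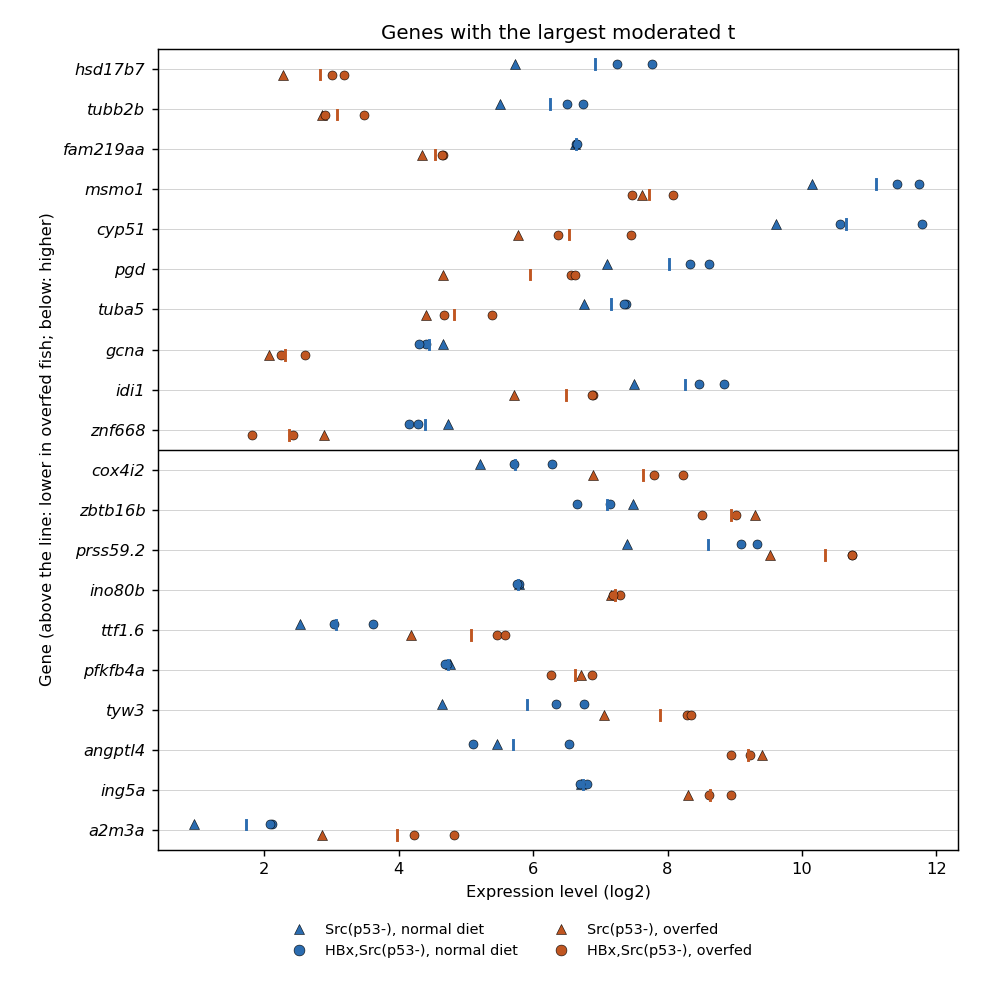
Expression level (log2) on each of the 6 arrays of the 10 lower and 10 higher genes with the largest moderated t among genes whose diets do not overlap; colours, symbols and bars as in the plot of sterol genes. None passed the adjusted threshold; fam219aa falls between 6.63 to 6.65 in normally fed and 4.35 to 4.65 in overfed fish, and angptl4 between 5.11 to 6.54 and 8.95 to 9.40.

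Markers of the exocrine pancreas, which lies against the liver in zebrafish, differed between the diets as well, in a direction that changed with the line. All 20 were higher in overfed Src-carrying fish (median +0.88), with 11 at an unadjusted p under 0.05 (4.06% of all genes were so on that side) and 5 without overlap (5.38%). In HBx(p53-) all 20 were lower in the overfed fish (median -0.68), and in WT 11 were higher and 9 lower. Their mean level was 4.13, 5.44 and 5.91 under NOR and 5.43, 6.73 and 6.09 under DIO. Of the defining genes, the trypsin prss1 was at 5.80 to 7.41 under NOR and 7.04 to 8.51 under DIO (+1.07 ± 0.26), the lipase cel.1 was +1.24 ± 0.24, and the transcription factor ptf1a was near the bottom of the scale on every array (1.21 to 1.79). The part of pancreatic RNA in the lists above was not tested beyond a fit with the mean level of these markers as a covariate. In that fit the squalene to cholesterol median was -4.14, that of the mevalonate genes -2.38 and that of the ER genes -1.23, and the fasting list was at +0.65. Other medians moved as well. Fatty acid oxidation went from -0.10 to -0.67, bile acid genes from -0.15 to -0.68 and oxidative stress genes from -0.15 to -0.66. Circadian clock genes went from +0.37 to +1.11, and triglyceride genes changed sign, from +0.11 to -0.02. Because the covariate itself was higher on average under DIO and 2 residual degrees of freedom were left, this fit cannot separate pancreatic RNA from diet. The lowest adjusted p of any gene by limma was 0.600 in that fit. Hepatocyte markers (median -0.01, 0 of 11 at an unadjusted p under 0.05) and leukocyte markers (+0.15, means of 3.79 to 4.58 under NOR and 4.05 to 4.17 under DIO) moved little.

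Of the genes the study followed by qPCR, 13 were measured, where agpat and pap are agpat4, an acyltransferase, and plpp1a, a lipid phosphatase, by the accessions of their primers. The genes scd, acat2, pik3ca and aldh7a1 were picked by the study from these arrays and are not independent evidence of a direction. On the arrays 11 were lower and 2 higher, with a median of -0.79. Beside scd, fasn, pparg and agpat4, an unadjusted p under 0.05 was reached by acat2, a thiolase (-2.38 ± 0.57), plpp1a (-0.81 ± 0.30), the lipogenic factor srebf1 (-0.68 ± 0.23) and aldh7a1 (-0.58 ± 0.21). These 8 lower genes were 61.5% of the list, against 7.45% of all genes. The acetyl-CoA acetyltransferase acat2 read 8.27 and 5.38 in Src(p53-), and 8.25 and 9.31 under NOR and 7.64 and 5.69 under DIO in HBx,Src(p53-), without overlap. The carbohydrate-sensing factor mlxipl was -1.37 ± 0.69. The cell cycle genes were dim and overlapped, with ccne1 at +0.34 ± 0.50, cdk1 at -0.73 ± 0.57 and cdk2 at -0.30 ± 0.26, and so did pik3ca (+0.06 ± 0.27). By qPCR on more fish, the study reported that overfeeding raised srebf1 and cell cycle genes in HBx,Src(p53-), but not the other lipogenic genes. In Src(p53-) it reported lower lipogenic enzymes and no rise of cell cycle genes. The array changes of srebf1, cdk1 and cdk2 over both lines thus differ in direction from that qPCR in HBx,Src(p53-).

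Of 23 p53 targets, 14 were higher (median +0.30, and -0.01 without either Src(p53-) array) in these p53 mutant fish. The ubiquitin ligase mdm2, which degrades p53, read 4.58, 4.48 and 4.69 under NOR and 5.73, 6.03 and 6.58 under DIO (+1.53 ± 0.25). The damage recognition gene ddb2 (+1.74 ± 0.61), rps27l (+1.31 ± 0.36) and baxa, which permeabilizes mitochondria (+0.76 ± 0.29), also had an unadjusted p under 0.05, and mdm4 lay lower (-0.69 ± 0.20). At that p, 17.4% of the list was higher and 4.35% lower, against 4.06% and 7.45% of all genes. At any size 46.5% of all genes were higher. Cell cycle and DNA replication genes were lower in 31 of 47 (median -0.13), with rrm1 (-1.15 ± 0.23), prim1 (-0.80 ± 0.23), mcm2 (-0.87 ± 0.34) and tyms (-0.76 ± 0.31) at an unadjusted p under 0.05 and 0 members on the higher side, where brca2 was at +1.03 ± 0.50. These 4 genes were 8.51% of the list, near the 7.45% of all genes, and 53.5% of all genes were lower.

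Oxidative stress genes had a median of -0.15, with taldo1 of the pentose phosphate pathway at -1.30 ± 0.38 and haem oxygenase (hmox1a), which breaks down haem, at +2.35 ± 0.52, from 4.27, 4.58 and 4.63 under NOR to 6.58, 5.94 and 8.03 under DIO. In the integrated stress response list (median -0.22, 18 of 26 lower) the serine synthesis enzyme psph was -2.65 ± 0.51, from 8.19, 7.37 and 9.21 to 5.89, 5.81 and 5.13, and its sensor eif2ak3 was -1.02 ± 0.32. The lines went opposite ways in this list. Its median was +0.30 in Src(p53-), with 17 of 26 higher, and -0.53 in HBx,Src(p53-), with 21 of 26 lower. Circadian clock genes were higher in 17 of 27 (median +0.37, and -0.08 without HBx,Src(p53-)_NOR 2), with cry1b at +1.82 ± 0.55, cry5 at +0.77 ± 0.24 and tefb at +1.27 ± 0.42. Among Src and growth signalling genes (median -0.05) mknk2b was +2.1 ± 0.53 and mknk1 -1.90 ± 0.49, kinases that act on the same translation factor, eIF4E, and csk, which inhibits Src, was -0.72 ± 0.22.

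The remaining lists stayed near the median of all genes. Inflammation and Toll-like receptor genes had a median of +0.06, with the adaptor myd88 at +0.94 ± 0.21 and tnfb at +0.91 ± 0.25. Acute phase and complement genes were at -0.03, with 0 of 24 at an unadjusted p under 0.05. Apolipoproteins were at -0.24, with the lipoprotein assembly protein mttp at -0.92 ± 0.28. Glycolysis was at -0.23, bile acid genes at -0.15 with nr5a2 at -0.67 ± 0.21, amino acid breakdown at +0.04 with the tryptophan dioxygenase tdo2b at +1.95 ± 0.60, and the vitellogenin and oestrogen list at -0.12 with the oestrogen receptor esr1 at -0.95 ± 0.26. The other marker lists had medians of +0.02 for intestine, +0.11 for red blood cells, +0.11 for bile duct, +0.09 for stellate and stromal cells, +0.04 for endothelium, +0.02 for adipose tissue and +0.16 for germ cells. Some of these differed by line. Bile duct markers had a median of +0.61 in Src(p53-), with 12 of 14 higher, and -0.02 in HBx,Src(p53-). Red blood cell markers were at -0.23 in Src(p53-), with 6 of 7 lower, and +0.29 in HBx,Src(p53-).

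Whether both Src-carrying lines changed alike was asked gene by gene. Across all genes the changes of the 2 lines, which share no array, had a correlation of 0.298 and the same direction in 54.7% of genes. More than 2-fold in both lines were 635 genes, of which 556 had the same direction, 297 lower and 259 higher. Both lines were lower in the median of the ER list (-0.98 for Src(p53-), -0.95 for HBx,Src(p53-)) and the proteasome list (-1.20 and -0.56), and both were higher in ribosome biogenesis (+0.65 and +0.95). Other lists had medians of opposite sign, for example fatty acid oxidation (+0.54 and -0.42) and the integrated stress response (+0.30 and -0.53). The test of the difference between the lines called no gene (0%, lowest adjusted p = 0.920), with 1076 genes (5.09%) at an unadjusted p under 0.05, near the number expected by chance. In that test 6 of the 23 sterol genes had a larger decrease in HBx,Src(p53-) at an unadjusted p under 0.05, for example hmgcs1 (difference -3.82 ± 1.11) and lss (-2.27 ± 0.53), and 0 a smaller one, against 3.01% and 2.08% of all genes on these sides. In the sterol genes the lines differed mainly in their NOR levels. Squalene to cholesterol genes averaged 6.34 in Src(p53-)_NOR and 8.15 and 7.48 in HBx,Src(p53-)_NOR, but 4.36 to 4.53 in all overfed fish. Over all genes this was not so. Between the Src(p53-) fish and each HBx,Src(p53-) fish, 3191 and 2193 genes were more than 2-fold apart under NOR, and 3306 and 2445 under DIO.

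Genes with the largest moderated t for the difference between the lines had changed in 1 line or in opposite directions in both. The complement protease c1s.2 went from 6.92 to 2.69 in Src(p53-) and from 5.81 and 6.12 to 6.82 and 6.29 in HBx,Src(p53-), a difference of +4.82 ± 0.52. Likewise slc7a1b (+3.99 ± 0.46), a cationic amino acid carrier, gusb (+3.54 ± 0.47), cyp2k21 (+4.91 ± 0.68) and crp4 (+3.04 ± 0.42) had a lower value under DIO in the Src(p53-) pair, and all but gusb a higher mean in HBx,Src(p53-). On the other side, jun, a subunit of the AP-1 transcription factor, went from 4.60 to 6.59 in Src(p53-) and from 7.34 and 7.49 to 5.59 and 5.96 in HBx,Src(p53-) (-3.63 ± 0.44). The others were samm50l (-3.73 ± 0.40), crygm2d18 (-3.57 ± 0.42), pfkfb4b (-3.86 ± 0.47) and mtus1a (-3.26 ± 0.40). Each of these rests on 1 Src(p53-) array per diet, assumed to vary like the HBx,Src(p53-) arrays.

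**Figure D5:**
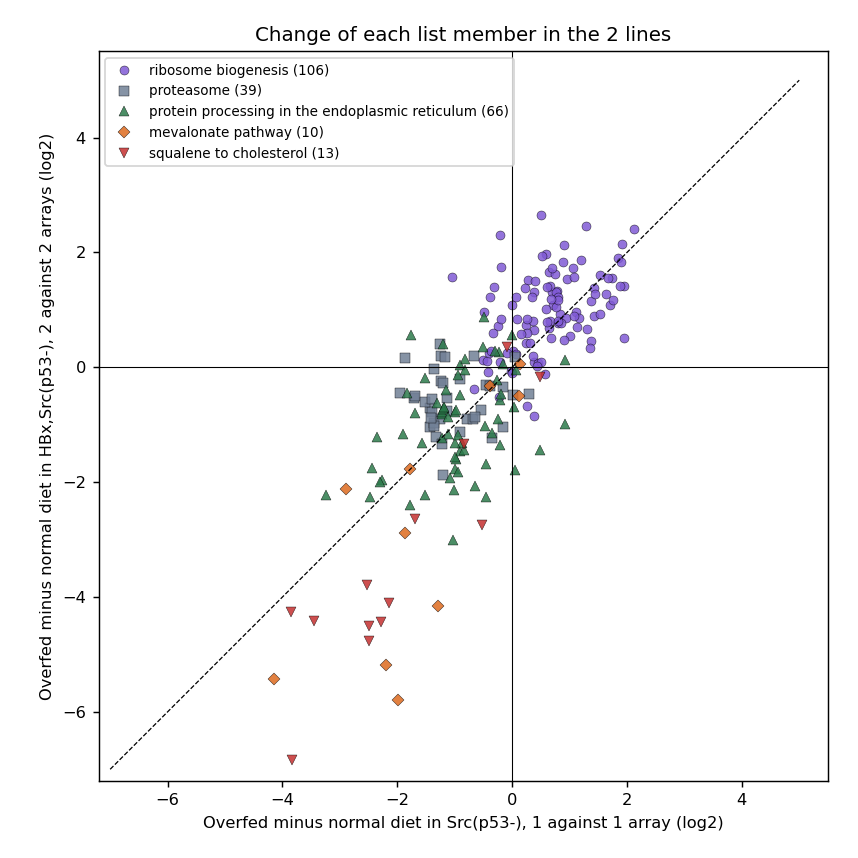
Overfeeding change (log2) of each member of 5 gene lists in Src(p53-), horizontal axis, 1 array against 1, and in HBx,Src(p53-), vertical axis, 2 arrays against 2; the dashed line marks equal change. Sterol genes lie lower left and mostly below the dashed line, with medians over both pathway segments of -1.98 and -3.80, and ribosome biogenesis genes mostly upper right.

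The question whether overfeeding acted differently in Src-carrying fish than in WT and HBx(p53-) fish was put to the 11 NOR and DIO arrays, which include the 6 arrays above. The contrast called no gene by limma (0%, lowest adjusted p = 0.119), with 1357 genes (6.42%) at an unadjusted p under 0.05, 804 of them (3.81%) lower in the Src-carrying lines and 553 (2.62%) higher. The lowest adjusted p was that of hsd17b7, whose change was +0.03 ± 0.30 in the other lines, a difference of -4.12 ± 0.41. Of the 23 sterol genes 15 were at an unadjusted p under 0.05 on the lower side, among them sqlea (difference -5.50 ± 0.97) and hmgcra (-4.49 ± 0.83), with a median difference of -2.76. Of the 106 ribosome biogenesis genes 18 were so on the higher side and 0 on the lower side (median difference +0.88), of the 66 ER genes 2 higher and 15 lower (-0.69), and of the 39 proteasome genes 0 higher and 6 lower (-0.77). The ER genes were also lower in the overfed WT fish, 57 of 66 with a median of -0.48. In HBx(p53-) 21 were lower and 45 higher (+0.26), so the lines set against the Src-carrying ones went opposite ways. Of the 20 pancreas markers 10 were so on the higher side (+1.22), where all 20 were lower in the overfed HBx(p53-) fish.

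Other genes with the largest moderated t in this contrast had opposite changes in the 2 pairs of lines. The acyl-CoA synthetase acsl4b was +1.65 and +1.42 in the Src-carrying lines, against -1.27 in WT and -1.70 in HBx(p53-) (difference +2.95 ± 0.37). The energy-sensing kinase subunit prkaa2 was -1.43 and -1.63 in the Src-carrying lines, against +1.23 and +1.73 in the others (-3.0 ± 0.43). The palmitoyltransferase zdhhc9 (-2.85 ± 0.42), tuba5 (-2.91 ± 0.48), kctd17 (+2.55 ± 0.40), cox4i2 (+2.78 ± 0.46), gstt1a, a glutathione transferase (+2.15 ± 0.37), and ctnnd2b (+1.84 ± 0.33) followed. In hspb6, a small heat shock protein, the difference of -2.22 ± 0.30 came from the other lines, since it was at 1.82 to 2.26 on all 6 arrays of the Src-carrying fish. Among fasting genes fbxo32 differed by +3.77 ± 0.82 and ppargc1a by +3.44 ± 1.17, and cidec differed by +3.66 ± 0.72.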

How the data were processed

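Livers were profiled on ZebGene 1.1 ST arrays, 1 array per sample. The deposited log2 values are gene-level expression that the authors made from the scans by RMA (robust multi-array averaging) using oligo in R. This subtracts background, quantile normalizes probes over all arrays and summarizes each probe set by median polish, so arrays share nearly the same distribution and a change in total RNA is not visible. It also narrows differences between dim probe sets, which understates folds at the low end. Versions, build and scan dates are not given in the sources used here, so no batch was tested. The number of arrays limits the precision.

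Of 75212 probe sets, 30358 had 1 gene symbol in the platform annotation, 1015 had several and were left unnamed, and 43839 had none listed. Entrez identifiers were set against RefSeq for the symbols of 19493 genes, which changed 1 probe set's symbol, and 1632 symbols stayed unmatched. Where several probe sets shared a gene (6365 genes), the brightest on average across all 14 arrays was kept. RNA of close paralogs may reach the same probes. The HBx transgene and gck are not analysed here.

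Limma 3.58.1 in R 4.3.3 (lmFit, eBayes) was used with Benjamini-Hochberg adjustment over 21125 genes and a threshold of 0.05, two-sided. The main model held diet and genotype over 6 arrays (3 residual degrees of freedom), the line by diet model 4 cell means (2), and the contrast with WT and HBx(p53-) 11 arrays (5). Alternatives were the mean of all probe sets, a minimum mean level of 4, quantile normalization, median centring, an intensity trend with robust variances, a call rule of an unadjusted p under 0.05 and over 2-fold (as in the study's methods), each array left out, 11 or 14 arrays, a replicate block, and pancreas or leukocyte covariates. The script was tested on simulated data.

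The 25 gene lists and 10 marker lists (897 entries, 838 measured) and the comparison itself were chosen with earlier results of these data known. The genes agpat4 and plpp1a of the qPCR list were matched by primer accession after the data were seen. Named genes were, in each direction, the 10 with the largest moderated t among called genes, filled up from genes whose diets did not overlap. Provisional names were skipped. In each list they were the 4 with the largest moderated t in the majority direction and 1 against it, and in each of the other tests the 5 highest and 5 lowest. Added to these were src, the study's qPCR genes, sterol regulators, the ER sensors atf6 and ern1, and xbp1.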

Additional observations from a re-analysis of the deposited data

Results flagged for a closer look

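Of the 25 gene lists and 10 marker lists, all but the qPCR list were screened. In 6 of them the mean level moved one way in every Src-carrying comparison and the opposite way in both other lines. The comparisons were the Src(p53-) pair and each HBx,Src(p53-) overfed fish against the mean of the normal diet fish of its line. Both HBx,Src(p53-) comparisons share the same mean, so their signs are not independent. The differences between these changes were not tested for a list. In the fasting, proteasome, triglyceride and p53 target lists the overfed WT fish lay between the 2 normal diet WT fish. For the fasting list it was at 6.80, between 7.98 and 6.46, and for the proteasome at 5.90, between 5.35 and 6.41. The sign of the WT change in these lists therefore depends on which normal diet fish is used.

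The difference, Src-carrying lines minus WT and HBx(p53-), was +1.2454 on the log2 scale for the gluconeogenesis and fasting genes. The list changed by +1.2 in Src(p53-) and by +0.07 and +0.68 in the HBx,Src(p53-) fish, against -0.42 in WT and -0.77 in HBx(p53-). The proteasome list differed by -0.8558, with -1.01, -0.44 and -0.73 in the Src-carrying fish against +0.02 in WT and +0.24 in HBx(p53-). The triglyceride list differed by +0.5861 and the p53 targets by +0.4991.

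Adipose markers differed by +0.6316 (+0.18, +0.44 and +0.44 against -0.23 and -0.33), a mean over 8 genes that include cidec (+3.66), while the median difference was +0.05 and 4 genes were higher and 4 lower in overfed Src-carrying fish. Bile acid genes differed by -0.3926, where the Src(p53-) change was only -0.04. No group held 4 or more arrays, so no group was searched for a single outlying fish.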

How the results depend on the processing

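The count of 0 genes became 6, all lower, with 11 arrays, 5 with 14 arrays and 1 (hsd17b7, adjusted p = 0.0309) when the 8581 genes with a mean of at least 4 were tested. It stayed at 0 in the 6 fits that left out 1 array, with 1316 (without HBx,Src(p53-)_DIO 2) to 2815 genes at an unadjusted p under 0.05, against 2430. The rule of an unadjusted p under 0.05 and over 2-fold gave 1021 genes (405 higher, 616 lower), 1076 for the difference between the lines and 1076 for the contrast with WT and HBx(p53-), whose counts otherwise stayed at 0. For the difference between the lines, genes at an unadjusted p under 0.05 went from 1076 to 1776 and 1781 without HBx,Src(p53-)_NOR 1 or 2 and to 564 without HBx,Src(p53-)_DIO 1, and for the contrast from 1357 to 2219 without WT_NOR 2. The line by diet difference could not be estimated without either Src(p53-) array. Quantile normalization moved the split of genes at an unadjusted p under 0.05 from 35.3% to 45.7% higher, and testing only brighter genes moved the median of all genes from -0.03 to -0.12.

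The sample numbers of HBx,Src(p53-) pair nothing by design. Same-numbered fish deviated together with a correlation of 0.128 across genes, over 2 pairs, and a replicate block gave 0 called genes and 2520 at an unadjusted p under 0.05.

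Of 2558 changes of 162 named genes, 14 in 8 genes had the other sign. Leaving out 1 array, ccne1 ranged from -0.16 to +0.83, ggps1 from -0.33 to +0.51 and mylipb from -0.21 to +0.82, each with its lowest value without HBx,Src(p53-)_NOR 2. The gene insig1 ranged from -0.62 to +0.67, pik3ca from -0.22 to +0.29 and src from -0.41 to +0.42, each lowest without either Src(p53-) array, and insig1 was also at -0.17 without HBx,Src(p53-)_NOR 2. Without HBx,Src(p53-)_DIO 2, insig1 was at -0.16 and pik3ca at -0.024. The subunit psma6b ranged from -0.011 without HBx,Src(p53-)_NOR 1 to +0.25, and ssr3 was at -0.027 with all probe sets averaged. Each value of the other sign had an adjusted p of at least 0.718, and the cause was not tested. Of 800 list medians under the alternatives, 730 kept their sign, counting the fits whose medians equal the main ones by construction. The squalene to cholesterol median ran from -4.14 to -3.15, the mevalonate median from -2.73 to -1.89, the ER median from -1.23 to -0.81 and the ribosome biogenesis median from +0.43 to +1.69.

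With 3 fish a side, and 1 of them the sole Src(p53-) fish, a change had to be large and even to pass. Overfed levels of sqlea, lss and ebp were below the array medians.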

Other observations

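Gene families related to the lists were picked by name after their values were seen, so they are described without a test. Several repeat genes already counted above and add no separate evidence. The oligosaccharyltransferase, disulfide isomerase, translocon and signal peptidase families share members with the ER list. The RNase P and MRP and the UTP families share members with the ribosome biogenesis list, and the 19S and 20S subunits with the proteasome list. All 9 subunits of COPI, the coat of vesicles that return from the Golgi to the ER, were lower in overfed Src-carrying fish (median -0.91, 4 without overlap), as were all 10 measured subunits of the oligosaccharyltransferase, which attaches glycans to proteins entering the ER (median -1.09, 7 without overlap), and 7 of 8 protein disulfide isomerases (-1.13). Of all genes, 9.19% were without overlap on the lower side, and at any size 53.5% were lower and 46.5% higher. Genes that build the N-glycan precursor had a median of -0.49 (15 of 20 lower), and the translocon and signal peptidase, through which proteins enter the ER, of -0.34 (10 of 14 lower). Within the proteasome, all 21 regulatory (19S) subunits were lower (median -0.90), as were 13 of 14 core (20S) subunits (-0.63).

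On the side of RNA, tRNA modification enzymes were higher in 32 of 39 (median +0.53), RNase P and MRP subunits in 8 of 9 (+0.80) and UTP subunits of the small subunit processome in 8 of 9 (+1.06), while aminoacyl-tRNA synthetases were lower in 26 of 33 (-0.51). The 66 cytosolic ribosomal proteins had a median of +0.02, the 67 mitochondrial ones -0.06 and the 38 complex I subunits -0.03. Tubulins had a median of -0.21, against -3.17 and -2.34 for tubb2b and tuba5 in this family of 18.

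Among genes singled out for size after their values were seen, erp27, an ER protein known from the mammalian pancreas, read 2.80, 1.33 and 2.44 under NOR and 4.83, 8.07 and 7.84 under DIO (+4.72 ± 0.84, adjusted p = 0.201). It was the largest increase of any gene tested. The antiviral gene rsad2 went from 2.24, 1.94 and 2.29 to 4.71, 4.05 and 6.48 (+2.92 ± 0.62), the mitochondrial carbonic anhydrase ca5a from 6.81, 8.15 and 7.78 to 10.78, 9.76 and 10.54 (+2.78 ± 0.44), and the acetoacetyl-CoA synthetase aacs from 7.71, 7.88 and 7.73 to 3.52, 5.39 and 3.95 (-3.49 ± 0.43).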
